A study of Homo sapiens with 12 samples.

Results

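The 10 genes described here encode inflammatory cytokines and factors of NF-κB signalling. They are the interleukins IL1A, IL1B, IL6 and IL18, the IL-6 family cytokine LIF, the NF-κB inhibitors NFKBIA and TNFAIP3, the NF-κB subunits NFKB2 and RELB, and the ubiquitin ligase BIRC3. They were picked by name from the 43557 genes of a read-count table, and all 10 were listed there and had enough counts to be tested. By their labels, the libraries came from T24 and RT4, which are established human bladder cancer cell lines. Whether the cells were those lines was not tested. In each line, 3 libraries labelled shFTO (FTO knockdown) were set against 3 labelled shNC (no treatment), which gives 12 polyadenylated RNA libraries in 4 groups. FTO is an RNA demethylase that removes methyl groups from N6-methyladenosine. The labels give neither the hairpin sequences nor whether a line was a clone or a pool, and they carry a batch number that equals the replicate number. Nothing in them says that the replicates were separate cultures, so the p-values measure only the spread between these libraries, which may be technical.

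FTO itself went with the label in T24 and against it in RT4. It averaged 25.5 ± 1.09 CPM in T24 shFTO libraries and 35.2 ± 1.25 CPM in T24 shNC libraries (SD, n = 3 each), while it averaged 68.9 ± 3.29 CPM in libraries labelled RT4 shFTO and 46.2 ± 1.01 CPM in those labelled RT4 shNC. The edgeR adjusted p was 1.93e-07 in T24 and 4.19e-09 in RT4. The log2 change of FTO was -0.46 in T24 and 0.58 in RT4. The median absolute log2 change over all tested genes was larger, at 1.06 in T24 and 1.04 in RT4. Every direction given here, in T24 as in RT4, is a direction between labels. The libraries held 31291047 to 102798895 counts, and levels are in CPM, counts scaled to a common library total with factors from trimmed means of M-values (TMM). A gene was called at an edgeR quasi-likelihood p under 0.05 after Benjamini-Hochberg adjustment, which ran over the 23070 genes with enough counts. The groups also differed in cell type markers. Of 24 hepatocyte markers, 20 reached 10 CPM in T24 shFTO, with summed levels of 31832 to 33112 CPM, against 1 marker and 2848 to 2927 CPM in T24 shNC. That 1 marker was CPS1, which ran the other way, at 7.65 CPM in T24 shFTO and 2878 CPM in T24 shNC. These sums were 41.6 to 46.4 CPM in RT4 shFTO and 20.95 to 22.7 CPM in RT4 shNC. SERPINA1 averaged 31.7 CPM in RT4 shFTO and 7.26 CPM in RT4 shNC. CYP2E1 ran the other way, at 0.203 CPM in RT4 shFTO and 11.8 CPM in RT4 shNC. Of 14 fibroblast markers, 9 were at 10 CPM or more in libraries labelled RT4 shFTO, with sums of 10834.5 to 11201 CPM, against 1 marker and 40.7 to 43.7 CPM in those labelled RT4 shNC. The RT4 shNC marker was FBLN1, which ran the other way, at 0.824 CPM in RT4 shFTO and 31.1 CPM in RT4 shNC. TWIST1 did so too, at 0.0174 and 8.96 CPM, as did DCN, at 0.431 and 0.872 CPM. The fibroblast sums were 266 to 270.4 CPM in T24 shFTO and 1338 to 1405 CPM in T24 shNC. Some of these markers ran the other way in T24, among them PDGFRB, at 15.7 CPM in shFTO and 5.49 CPM in shNC. Others were LUM, at 8.38 and 0.481 CPM, and PDGFRA, at 5.46 and 0 CPM. Of 21 urothelial and epithelial markers, 11 reached 1 CPM in T24 shFTO, 13 in T24 shNC, 8 in RT4 shFTO and 7 in RT4 shNC. Their sums were 4112 to 4383 CPM in T24 shFTO and 6727 to 6933 CPM in T24 shNC. In RT4 they were 1420 to 1480 CPM for shFTO and 695 to 775 CPM for shNC. Single markers ran both ways in T24 and in RT4. EPCAM averaged 377 CPM in T24 shFTO and 14.2 CPM in T24 shNC, while KRT7 averaged 0.988 and 1208 CPM. In RT4, KRT8 averaged 984 CPM in shFTO and 168 CPM in shNC, and KRT7 averaged 143 and 7.47 CPM. KRT18 ran the other way, at 276 CPM in RT4 shFTO and 548 CPM in RT4 shNC. GATA3 did so too, at 3.01 and 9.06 CPM, as did FOXA1, at 0.0268 and 1.61 CPM. EPCAM and CDH1 averaged under 1 CPM in both RT4 groups. The uroplakins UPK1B and UPK3A, which mark urothelium, had 0 counts in T24 shNC, RT4 shFTO and RT4 shNC. They averaged 1.295 and 0.910 CPM in T24 shFTO. UPK3B and UPK2 were instead highest in T24 shNC, at 7.51 and 1.23 CPM, against 0.0863 and 0.0452 CPM in T24 shFTO. UPK3B averaged 1.42 CPM in RT4 shFTO and 0.119 CPM in RT4 shNC. UPK1A averaged under 1 CPM in every group. KRT20 and KRT5 had 0 counts in T24 shFTO and in RT4 shNC. Leukocytes are a usual source of these cytokines. Their marker list, of which 15 of 18 genes were in the table, summed to 19.2 to 24.7 CPM in T24 shFTO libraries and 15.5 to 20.1 CPM in T24 shNC libraries. The same sum was 49.6 to 61.3 CPM in libraries labelled RT4 shFTO and 33.3 to 38.9 CPM in those labelled RT4 shNC. CD68 made up most of the RT4 shNC sum and was lower in RT4 shFTO, with means of 22.1 CPM there and 34.8 CPM in RT4 shNC. The myeloid receptor CSF1R averaged 19.9 CPM in RT4 shFTO and 0.0621 CPM in RT4 shNC, and CD14 averaged 9.62 CPM in RT4 shFTO and 0.0728 CPM in RT4 shNC. LCP1 averaged 1.74 CPM in RT4 shFTO and 0.0379 CPM in RT4 shNC. PTPRC, which marks all leukocytes, had 16 counts in T24 shFTO and 0 in T24 shNC, and 64 counts in RT4 shFTO (0.578 CPM) and 2 in RT4 shNC. The 10 endothelial markers summed to at most 21.7 CPM in any library. The part of these marker differences in the results was not tested.

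NF-κB transcription factors are dimers of related subunits that are held in the cytoplasm until a receptor signal releases them. In the canonical branch, receptors for IL-1, TNF and bacterial products lead to the breakdown of the inhibitor IκBα, the product of NFKBIA, and RELA-containing dimers enter the nucleus. In the alternative branch, the p100 product of NFKB2 is trimmed and moves to the nucleus together with RELB. NF-κB induces IL1A, IL1B and IL6, and it also induces its own restraints NFKBIA and TNFAIP3 and the survival factor BIRC3. Interleukin-18 is stored as a precursor that caspase-1 cuts, and LIF signals through the receptor subunits LIFR and IL6ST.

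The promoters of 5 of the 10 genes are shown because NF-κB is known to act on these genes and because each window holds a match to the 10-base κB consensus, which was searched on both strands. The windows are RefSeq sequences of GRCh38.p14 from 250 bases before to 50 bases after the transcription start, in lower case with κB matches in capitals. Neighbouring matches overlap in the NFKB2 window.
IL6 promoter, chr7:22726950-22727249, + strand: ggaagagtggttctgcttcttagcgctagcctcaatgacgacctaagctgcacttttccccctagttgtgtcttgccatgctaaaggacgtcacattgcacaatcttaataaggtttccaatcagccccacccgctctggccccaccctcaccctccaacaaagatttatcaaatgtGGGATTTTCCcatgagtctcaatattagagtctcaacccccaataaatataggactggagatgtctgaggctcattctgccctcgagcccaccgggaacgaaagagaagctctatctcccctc
NFKBIA promoter, chr14:35404700-35404999, - strand: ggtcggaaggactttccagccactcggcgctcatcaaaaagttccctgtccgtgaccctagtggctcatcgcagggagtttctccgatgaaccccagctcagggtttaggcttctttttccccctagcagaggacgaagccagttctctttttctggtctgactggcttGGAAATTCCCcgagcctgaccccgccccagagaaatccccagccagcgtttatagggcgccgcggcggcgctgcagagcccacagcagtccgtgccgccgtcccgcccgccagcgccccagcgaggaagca
TNFAIP3 promoter, chr6:137867009-137867308, + strand: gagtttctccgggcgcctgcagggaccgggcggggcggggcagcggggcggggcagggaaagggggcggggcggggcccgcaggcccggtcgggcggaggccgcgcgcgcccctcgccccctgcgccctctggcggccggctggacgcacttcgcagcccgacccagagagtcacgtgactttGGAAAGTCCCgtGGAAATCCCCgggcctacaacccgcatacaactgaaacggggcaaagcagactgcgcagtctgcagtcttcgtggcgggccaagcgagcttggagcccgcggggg
NFKB2 promoter, chr10:102394328-102394627, + strand: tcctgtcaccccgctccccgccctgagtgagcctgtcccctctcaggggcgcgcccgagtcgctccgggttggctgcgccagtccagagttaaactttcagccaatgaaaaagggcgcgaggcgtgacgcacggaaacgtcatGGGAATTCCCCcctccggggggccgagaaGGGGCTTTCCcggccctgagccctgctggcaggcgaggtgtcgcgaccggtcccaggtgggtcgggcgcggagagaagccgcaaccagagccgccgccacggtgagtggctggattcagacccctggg
BIRC3 promoter, chr11:102317234-102317533, + strand: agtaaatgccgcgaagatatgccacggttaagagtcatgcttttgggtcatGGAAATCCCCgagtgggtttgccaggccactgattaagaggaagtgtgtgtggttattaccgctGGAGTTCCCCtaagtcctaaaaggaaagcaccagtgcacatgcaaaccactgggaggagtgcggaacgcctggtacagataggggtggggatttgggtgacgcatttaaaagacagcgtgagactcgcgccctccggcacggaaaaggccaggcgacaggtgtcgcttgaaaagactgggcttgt
The IL6 match begins at position -73 from the start on the promoter strand, and that of NFKBIA at -81 on the other strand. The TNFAIP3 window has matches at -67 and -55, and the BIRC3 window has them at -199 and -135, in both genes on the other strand. In the NFKB2 window shown, matches begin at -107, -106 and -78, and another window of NFKB2 holds matches at -176 and -21. Of the 7 genes with a RefSeq window, 5 had a match, and IL1A and IL1B had none in their windows. For comparison, 11.3% of all 35116 windows and 13.3% of the 27305 genes with a window hold such a match. IL18, LIF and RELB are named only.

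IL6, IL1B, IL1A and IL18 moved in opposite directions in T24 and RT4. All of them were lower in T24 shFTO than in T24 shNC, and all were higher in the libraries labelled RT4 shFTO than in those labelled RT4 shNC. IL6 showed the widest contrast, with 0 to 5 counts in its low group of each line. IL6 (chromosome 7, 22727200 to 22731998) encodes the fever and acute-phase cytokine interleukin-6. It had 0 counts in all 3 T24 shFTO libraries, which allows up to 0.0244 CPM over the group, against 16.97, 14.4 and 17.6 CPM in the T24 shNC libraries. In the libraries labelled RT4 shFTO it stood at 26.7, 22.6 and 27.6 CPM, against 0, 0.0456 and 0 CPM in those labelled RT4 shNC, where its 5 counts all came from replicate 2. The groups of each line did not overlap. IL6 was thus at least 669.6-fold lower in T24 shFTO, taking 3 counts over the group as the floor (edgeR adjusted p = 8.64e-12). In RT4 it was 1253-fold higher in shFTO than in shNC by the ratio of scaled counts, with a 95% counting interval of 536 to 3863 (edgeR adjusted p = 1.17e-12). Without replicate 3 of RT4 shNC the ratio was 788, and without replicate 2, which held the counts, the bound was at least 1149.6-fold. As in any bulk sample, fewer expressing cells and less RNA per cell cannot be told apart here. IL6 exons overlap those of STEAP1B on the opposite strand, and the sources used here do not say whether counting used strand. STEAP1B averaged 0.0256 ± 0.0443 CPM in T24 shFTO, 0.151 ± 0.0992 CPM in T24 shNC, 1.35 ± 0.288 CPM in RT4 shFTO and 10.7 ± 0.4798 CPM in RT4 shNC, which is not the order of IL6.

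IL1B (chromosome 2, 112829751 to 112836779) encodes interleukin-1β, which is secreted after cleavage by caspase-1. Its level was 0.176, 0.153 and 0.0512 CPM in T24 shFTO libraries, against 2.68, 2.11 and 1.99 CPM in T24 shNC libraries. The libraries labelled RT4 shFTO held 30.6, 31.2 and 32.5 CPM, against 0.275, 0.201 and 0.177 CPM in those labelled RT4 shNC. Only the RT4 shFTO libraries exceeded 3 CPM, and the groups of a line did not overlap. Summed over the group, IL1B was 17.2-fold lower in T24 shFTO, where 16 counts were seen (edgeR adjusted p = 1.64e-10). It was 153-fold higher in RT4 shFTO, with a counting interval of 116 to 207 (edgeR adjusted p = 1.61e-15).

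IL1A (chromosome 2, 112773925 to 112784493) lies 45257 bases from IL1B on the same strand and encodes interleukin-1α, an alarm signal that is active without cleavage by caspase-1. Its T24 shFTO libraries had 0.215, 0.183 and 0.102 CPM against 3.59, 3.601 and 4.304 CPM in the T24 shNC libraries. In RT4 the values were 0.697, 0.877 and 0.9404 CPM in libraries labelled shFTO and 0, 0 and 0.0663 CPM in those labelled shNC. The 6 counts of the RT4 shNC group all came from replicate 3. IL1A was 22.7-fold lower in T24 shFTO on 21 counts (edgeR adjusted p = 2.34e-08) and 34.05-fold higher in RT4 shFTO, with a counting interval of 15.1 to 95.2 (edgeR adjusted p = 2.8e-07). Without replicate 2 of RT4 shNC that ratio was 18.7, and without replicate 3 the bound was at least 42.8-fold. The proportion of these neighbours varied between groups. IL1A had on average 1.47 counts per IL1B count in T24 shFTO libraries, 1.74 in T24 shNC, 0.0266 in RT4 shFTO and 0.125 in RT4 shNC. The RT4 shNC mean rests on replicate 3 alone, as its libraries had 0, 0 and 0.375. Those of RT4 shFTO had 0.0228, 0.0281 and 0.0289 IL1A counts per IL1B count. The exact two-sided permutation p of that ratio was 0.5 in T24 and 1 in RT4, and with 3 libraries against 3 it cannot go below 0.1.

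IL18 (chromosome 11, 112143260 to 112164094) encodes interleukin-18, an inducer of interferon-γ that many epithelia make without a stimulus. T24 shFTO libraries had 4.23, 3.94 and 3.64 CPM, against 40.1, 38.3 and 37.3 CPM in T24 shNC libraries. Libraries labelled RT4 shFTO had 5.199, 4.496 and 5.07 CPM, against 0.115, 0.356 and 0.309 CPM in those labelled RT4 shNC. T24 shNC stood above every other group, and no groups overlapped. IL18 was 9.71-fold lower in T24 shFTO (log2 change -3.29, SE 0.13, edgeR adjusted p = 4.49e-13) and 16.7-fold higher in RT4 shFTO (log2 change 4.07, SE 0.18, edgeR adjusted p = 1.51e-12).

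LIF (chromosome 22, 30240453 to 30246759) encodes leukemia inhibitory factor, which keeps mouse embryonic stem cells undifferentiated. Unlike the interleukins, it was lower under the shFTO label in both lines. T24 shFTO libraries had 18.5, 18.9 and 17.9 CPM, against 23.9, 19.6 and 22.5 CPM in T24 shNC libraries. In RT4 it had 10.96, 9.61 and 9.796 CPM in libraries labelled shFTO, against 97.1, 99.2 and 100.1 CPM in those labelled shNC. The T24 groups came within 1 CPM of each other, whereas the RT4 groups were far apart. The log2 change was -0.26 in T24 (SE 0.065, edgeR adjusted p = 0.00168). The 3 batches gave separate T24 values of -0.37, -0.05 and -0.34. It was -3.29 in RT4 (SE 0.066, edgeR adjusted p = 6.56e-17), a 9.79-fold lower level in shFTO. LIF exons overlap LIF-AS1 on the opposite strand, which had at most 5 counts in any group.

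**Figure D1:**
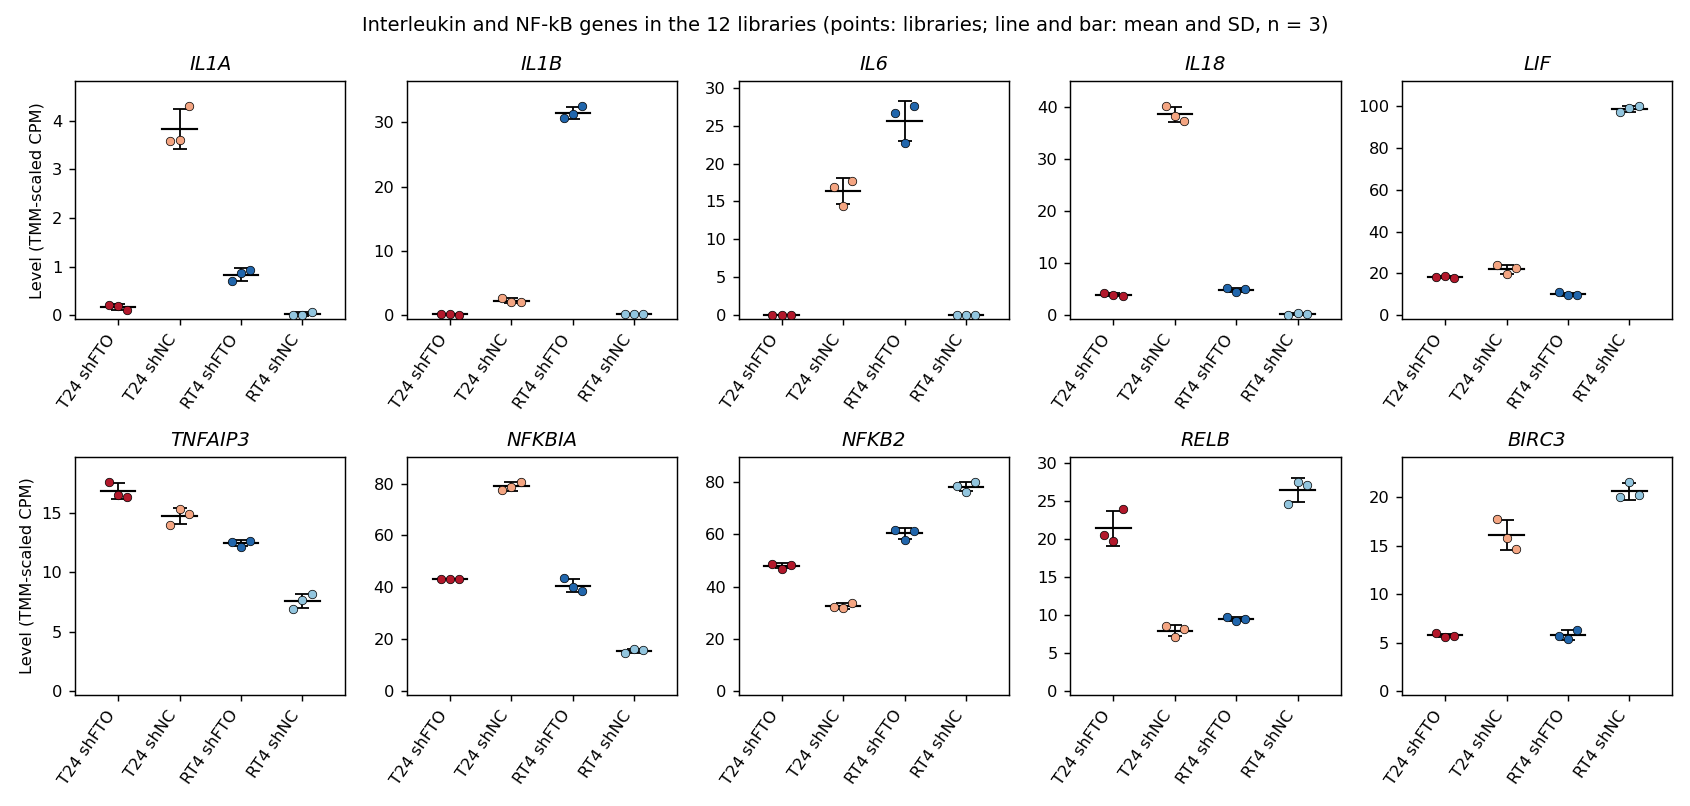
Level of each of the 10 genes in TMM-scaled CPM (vertical axis, linear, from 0, with its own scale for each gene) in the 4 groups along the horizontal axis; points are libraries, and the line and bar are the mean and SD (n = 3). IL6, IL1B, IL1A and IL18 are near 0 in RT4 shNC and low in T24 shFTO, LIF is highest in RT4 shNC at 97.1 to 100.06 CPM, and the groups of TNFAIP3 lie closest together in proportion.

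The inhibitors of NF-κB did not move together. NFKBIA, which encodes the IκBα protein that retains NF-κB in the cytoplasm, followed the interleukins, being lower in T24 shFTO and higher in RT4 shFTO. TNFAIP3, which encodes A20, a ubiquitin-editing enzyme that damps TNF and Toll-like receptor signals, was higher in shFTO than in shNC libraries of both lines. NFKBIA (chromosome 14, 35401513 to 35404749) had 43.3, 43.1 and 43.2 CPM in T24 shFTO libraries, against 77.4, 78.8 and 80.7 CPM in T24 shNC libraries. It had 43.5, 40.1 and 38.4 CPM in libraries labelled RT4 shFTO, against 14.5, 16.03 and 15.9 CPM in those labelled RT4 shNC. The 2 shFTO groups lay close together, with T24 shNC above and RT4 shNC below them. The log2 change was -0.87 in T24 (SE 0.048, edgeR adjusted p = 3.8e-11) and 1.39 in RT4 (SE 0.051, edgeR adjusted p = 1.57e-13). TNFAIP3 (chromosome 6, 137866349 to 137883312) had 17.6, 16.5 and 16.4 CPM in T24 shFTO libraries, against 13.98, 15.3 and 14.9 CPM in T24 shNC libraries. Its RT4 values were 12.5, 12.1 and 12.6 CPM in libraries labelled shFTO and 6.91, 7.66 and 8.13 CPM in those labelled shNC. In T24 its groups were closer, in proportion, than those of the other 9 genes. The log2 change was 0.20 in T24 (SE 0.077, edgeR adjusted p = 0.0292) and 0.71 in RT4 (SE 0.078, edgeR adjusted p = 3.42e-07). In T24 the call was lost without replicate 1 of shFTO (0.16, edgeR adjusted p = 0.105) or of shNC (0.16, edgeR adjusted p = 0.114), with upper-quartile scaling (0.09, edgeR adjusted p = 0.26) and with library totals (0.02, edgeR adjusted p = 0.867).

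NFKB2 and RELB, the subunits of the alternative branch, were higher in T24 shFTO than in T24 shNC and lower in the libraries labelled RT4 shFTO than in those labelled RT4 shNC. Their directions were thus opposite to those of NFKBIA and the 4 interleukins in each line. NFKB2 (chromosome 10, 102394110 to 102402529) encodes p100, the precursor of the p52 subunit. Its level was 48.7, 46.9 and 48.2 CPM in T24 shFTO libraries, against 32.1, 31.8 and 33.7 CPM in T24 shNC libraries. It was 61.8, 57.97 and 61.4 CPM in libraries labelled RT4 shFTO, against 78.4, 76.3 and 80.1 CPM in those labelled RT4 shNC. All 6 RT4 libraries were above all 6 T24 libraries. The log2 change was 0.56 in T24 (SE 0.041, edgeR adjusted p = 1.66e-09) and -0.37 in RT4 (SE 0.038, edgeR adjusted p = 1.31e-07). RELB (chromosome 19, 45001464 to 45038192) encodes the RelB subunit that pairs with p52 or p100. T24 shFTO libraries had 20.5, 19.6 and 23.96 CPM, against 8.48, 7.14 and 8.201 CPM in T24 shNC libraries. Libraries labelled RT4 shFTO had 9.78, 9.19 and 9.43 CPM, against 24.6, 27.5 and 27.1 CPM in those labelled RT4 shNC. The high pair of groups was T24 shFTO and RT4 shNC, which is the reverse of the pair that was high in IL6. RELB was 2.68-fold higher in T24 shFTO (edgeR adjusted p = 1.94e-10) and 2.83-fold lower in RT4 shFTO (edgeR adjusted p = 8.17e-11).

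BIRC3 (chromosome 11, 102317484 to 102339403) encodes cIAP2, a ubiquitin ligase that protects cells from TNF-induced death and, with TRAF proteins, limits the alternative branch. It was lower under the shFTO label in both lines. T24 shFTO libraries had 5.95, 5.55 and 5.68 CPM, against 17.7, 15.8 and 14.7 CPM in T24 shNC libraries. The libraries labelled RT4 shFTO had 5.68, 5.32 and 6.32 CPM, against 19.97, 21.6 and 20.2 CPM in those labelled RT4 shNC. The 6 shFTO libraries lay between 5.32 and 6.32 CPM and the 6 shNC libraries were all above 14 CPM. BIRC3 was 2.77-fold lower in T24 shFTO (log2 change -1.48, SE 0.092, edgeR adjusted p = 1.81e-10) and 3.59-fold lower in RT4 shFTO (log2 change -1.83, SE 0.091, edgeR adjusted p = 9.62e-12). Its neighbour BIRC2, which encodes the related ligase cIAP1, starts 7810 bases after its end on the same strand. BIRC2 averaged 52.3 ± 1.895 CPM in T24 shFTO and 47.9 ± 2.58 CPM in T24 shNC, and 66.2 ± 2.12 CPM in RT4 shFTO and 59.1 ± 0.813 CPM in RT4 shNC. Its log2 change was 0.13 in T24 and 0.16 in RT4. Both signs turned, to -0.053 and -0.10, where libraries were scaled by their totals alone.

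**Figure D2:**
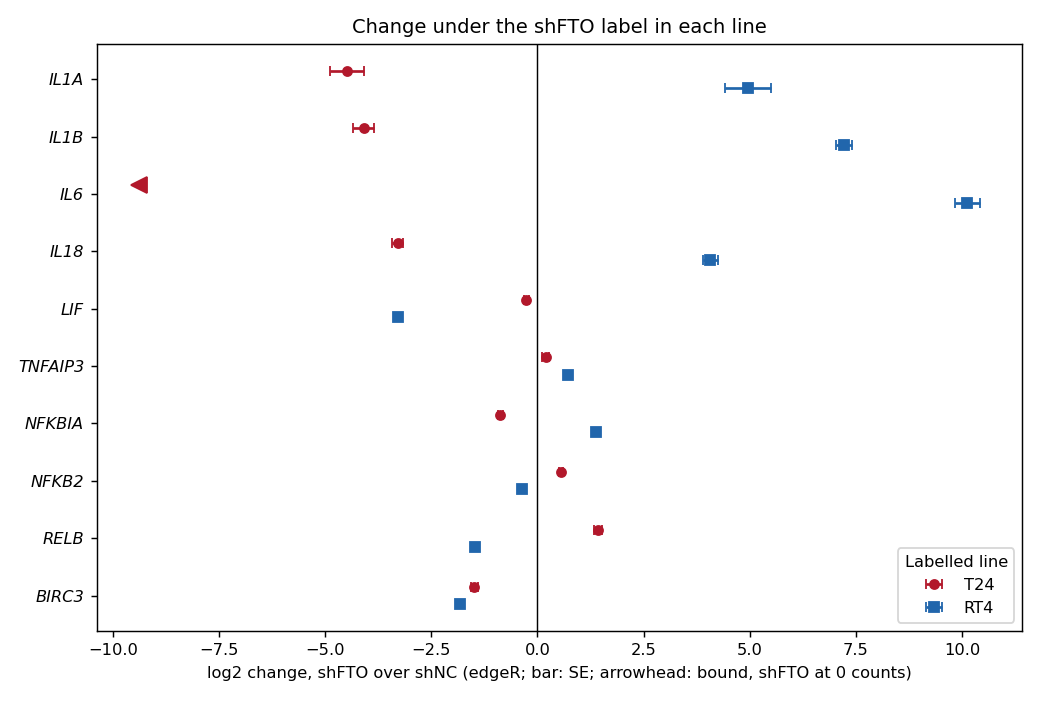
Log2 change of each gene (horizontal axis, shFTO over shNC, edgeR) in T24 (circles) and RT4 (squares); bars are the SE, and the arrowhead marks the bound for IL6 in T24, where shFTO had 0 counts. IL1A, IL1B, IL6, IL18 and NFKBIA lie left of 0 in T24 and right of 0 in RT4, NFKB2 and RELB lie the other way round, LIF and BIRC3 are left of 0 in both lines, and TNFAIP3 is right of 0 in both.

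In T24, 3 of the 10 genes were higher and 7 lower in shFTO, and in RT4 6 were higher and 4 lower. All 10 were called in each line, and no gene had overlapping values in its shFTO and shNC libraries. Read against the whole table these counts are not unusual, since 78% of all tested genes were called in T24 (37.2% higher and 40.8% lower) and 78.6% in RT4 (38.6% higher and 40% lower). Of all tested genes, 79.6% lacked such overlap in T24 and 79.9% in RT4. The sizes of the changes varied more. Across the tested genes, absolute log2 changes had a median of 1.06 for T24 and 1.04 for RT4. In T24, TNFAIP3, LIF, NFKB2 and NFKBIA were below that median, and in RT4 NFKB2 and TNFAIP3 were. Each batch holds 1 library of each group. Where both libraries of every batch had counts, the sign was the same in all 3 batches for 9 of 9 genes in T24 and for 8 of 8 in RT4. Equal signs follow from the lack of overlap and are no separate result. The values within batches 1, 2 and 3 were, for example, 1.27, 1.46 and 1.55 for RELB in T24 and -1.33, -1.58 and -1.52 in RT4, -3.25, -3.28 and -3.36 for IL18 in T24 and 5.50, 3.66 and 4.03 in RT4.

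Whether the change differed between the lines was tested with the T24 change minus the RT4 change. All 10 genes were called, 4 with a higher and 6 with a lower change in T24, against 75% of all tested genes (36.3% higher and 38.7% lower). The difference was -11.32 on the log2 scale for IL1B (edgeR adjusted p = 1.61e-15), -7.36 for IL18 (edgeR adjusted p = 8.05e-15) and -2.26 for NFKBIA (edgeR adjusted p = 1.47e-14). RELB had the opposite sign, with a difference of 2.90 (edgeR adjusted p = 1.08e-12), and so did NFKB2, with 0.93 (edgeR adjusted p = 1.14e-10). LIF and TNFAIP3 moved the same way in both lines but by different amounts, with differences of 3.03 (edgeR adjusted p = 1.24e-14) and -0.51 (edgeR adjusted p = 0.000456). BIRC3 differed least, by 0.35 (edgeR adjusted p = 0.0215), and that call was lost without replicate 2 of RT4 shFTO (0.30, edgeR adjusted p = 0.0583) or of RT4 shNC (0.32, edgeR adjusted p = 0.0513).

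Ratios of counts within a library do not depend on the scaling between libraries. NFKBIA had 0.887, 0.920 and 0.896 counts per NFKB2 count in T24 shFTO libraries, against 2.41, 2.47 and 2.39 in T24 shNC libraries. It had 0.704, 0.692 and 0.626 in libraries labelled RT4 shFTO, against 0.185, 0.210 and 0.198 in those labelled RT4 shNC. The balance of inhibitor to precursor transcript was therefore lower in T24 shFTO and higher in RT4 shFTO. RELB had 0.420, 0.419 and 0.497 counts per NFKB2 count in T24 shFTO, against 0.264, 0.224 and 0.243 in T24 shNC. In libraries labelled RT4 shFTO it had 0.158, 0.159 and 0.154, against 0.313, 0.360 and 0.338 in those labelled RT4 shNC. BIRC3 had 0.104 to 0.114 counts per BIRC2 count in T24 shFTO libraries and 0.316 to 0.364 in T24 shNC libraries. In the libraries labelled RT4 shFTO it had 0.0825 to 0.0962, against 0.333 to 0.370 with the RT4 shNC label. In both lines the shFTO and shNC values of these 3 ratios were fully apart, and each exact two-sided permutation p was 0.1, the smallest that 3 libraries against 3 can give.

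**Figure D3:**
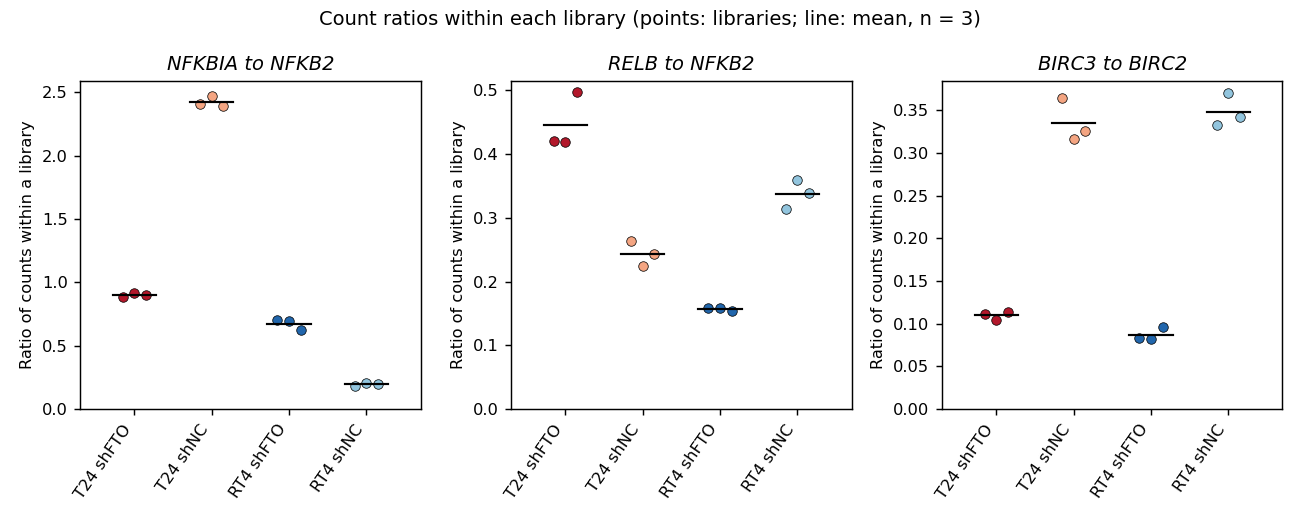
Counts of NFKBIA per count of NFKB2, of RELB per NFKB2 and of BIRC3 per BIRC2 (vertical axes, linear, from 0) in each library of the 4 groups; points are libraries and the line is the mean (n = 3). NFKBIA to NFKB2 is highest in T24 shNC, RELB to NFKB2 is highest in T24 shFTO, and BIRC3 to BIRC2 is low in both shFTO groups.

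The control libraries of the 2 lines also differed in all 10 genes, with 6 higher and 4 lower in T24 shNC than in RT4 shNC, where 80.1% of all tested genes were called (40.3% higher and 39.7% lower). No gene of the 10 had overlapping values here, as 81.7% of tested genes had not. This comparison shares its libraries with those above. Higher in T24 shNC were IL6 (804-fold), IL1A (158-fold), IL18 (130.2-fold), IL1B (10.9-fold), NFKBIA (5.04-fold) and TNFAIP3 (1.91-fold). Lower in T24 shNC were LIF (4.48-fold), RELB (3.36-fold), NFKB2 (2.39-fold) and BIRC3 (1.304-fold). The edgeR adjusted p was 0.00099 for BIRC3 and 6.74e-09 or less for the other 9. The IL6 and IL1A folds rest on 5 and 6 counts in RT4 shNC. The IL6 ratio was 505 without replicate 3 of RT4 shNC and at least 737 without replicate 2, and that of IL1A was 86.8 without replicate 2 and at least 198 without replicate 3.

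The order of levels over the 4 groups fell into a few shapes. IL6 and IL1B were highest in RT4 shFTO and then in T24 shNC, and their lowest neighbours, T24 shFTO and RT4 shNC, were not called different (edgeR adjusted p = 0.102 and 0.119). That call was gained for IL6 without replicate 3 of RT4 shNC (edgeR adjusted p = 0.0298) and for IL1B with library totals (-0.86, edgeR adjusted p = 0.0397), each 1 of 21 alternatives. IL1A and IL18 were highest in T24 shNC, followed by RT4 shFTO, T24 shFTO and RT4 shNC. For IL18 the step between T24 shFTO and RT4 shFTO was small, with a log2 difference of -0.32 (edgeR adjusted p = 0.0414), and it was not called under 12 of 22 alternatives. With edgeR these were the batch as a replicate block (adjusted p = 0.0683), upper-quartile scaling (adjusted p = 0.0936), library totals (adjusted p = 0.0818), no low-count filter (adjusted p = 0.119) and 7 of the fits that left out 1 library (adjusted p = 0.0641 to 0.131). The other was limma-voom (adjusted p = 0.0584). NFKBIA was highest in T24 shNC and lowest in RT4 shNC, and T24 shFTO and RT4 shFTO between them were not called different (0.09, edgeR adjusted p = 0.12). They were called, higher in T24 shFTO, under 4 of 22 alternatives, which were upper-quartile scaling (0.16, edgeR adjusted p = 0.00357), library totals (0.15, edgeR adjusted p = 0.0049), counts thinned to the smallest library (edgeR adjusted p = 0.0268) and leaving out replicate 1 of RT4 shFTO (edgeR adjusted p = 0.029). TNFAIP3 stepped down over T24 shFTO, T24 shNC, RT4 shFTO and RT4 shNC, each step being called, the T24 step with the exceptions given for it above. LIF, NFKB2, RELB and BIRC3 were all highest in RT4 shNC. Below it, LIF stepped down over T24 shNC, T24 shFTO and RT4 shFTO, and NFKB2 over RT4 shFTO, T24 shFTO and T24 shNC. RELB came next in T24 shFTO, then in RT4 shFTO and T24 shNC, a last step with a log2 difference of -0.25 for T24 shNC against RT4 shFTO (edgeR adjusted p = 0.0211). That step was not called under 6 of 22 alternatives, namely with library totals (-0.01, edgeR adjusted p = 0.978), with upper-quartile scaling (-0.07, edgeR adjusted p = 0.493), with no low-count filter (edgeR adjusted p = 0.0569), with limma-voom (adjusted p = 0.0653), without replicate 2 of T24 shNC (edgeR adjusted p = 0.107) or without replicate 1 of RT4 shFTO (edgeR adjusted p = 0.0598). BIRC3 came next in T24 shNC, and its T24 shFTO and RT4 shFTO levels were not called different (edgeR adjusted p = 0.945). Counted over the 10 genes, 3 were higher and 5 lower in T24 shFTO than in RT4 shFTO, and 8 did not overlap, where 77.5% of all tested genes were called (37.8% higher and 39.7% lower) and 78.9% did not overlap. For T24 shNC against RT4 shFTO 6 were higher and 4 lower, and all 10 were apart, where 76% of tested genes were called (39.4% higher and 36.6% lower) and 78% did not overlap. For T24 shFTO against RT4 shNC 4 were higher and 4 lower, and 9 were apart, where 80.1% of tested genes were called (37.4% higher and 42.8% lower) and 81.4% did not overlap.

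To compare the genes with one another, levels were divided by the length of their merged exons. On the scale of CPM per kilobase, NFKBIA had the highest level of the 10 genes in T24 shFTO at 18.2 ± 0.0318, in T24 shNC at 33.3 ± 0.690 and in RT4 shFTO at 17.1 ± 1.09 (SD, n = 3 each). In RT4 shNC the highest level was that of LIF, at 24.9 ± 0.383 CPM per kilobase, while NFKBIA came behind NFKB2 and RELB at 6.52 ± 0.361. The level next to the top belonged to NFKB2 in T24 shFTO, RT4 shFTO and RT4 shNC, and to IL18 in T24 shNC at 14.7 ± 0.547. IL6 followed in T24 shNC at 7.90 ± 0.825 and in RT4 shFTO at 12.4 ± 1.27 CPM per kilobase. IL1A, IL1B and IL6 were each under 0.1 CPM per kilobase in T24 shFTO and in RT4 shNC.

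**Figure D4:**
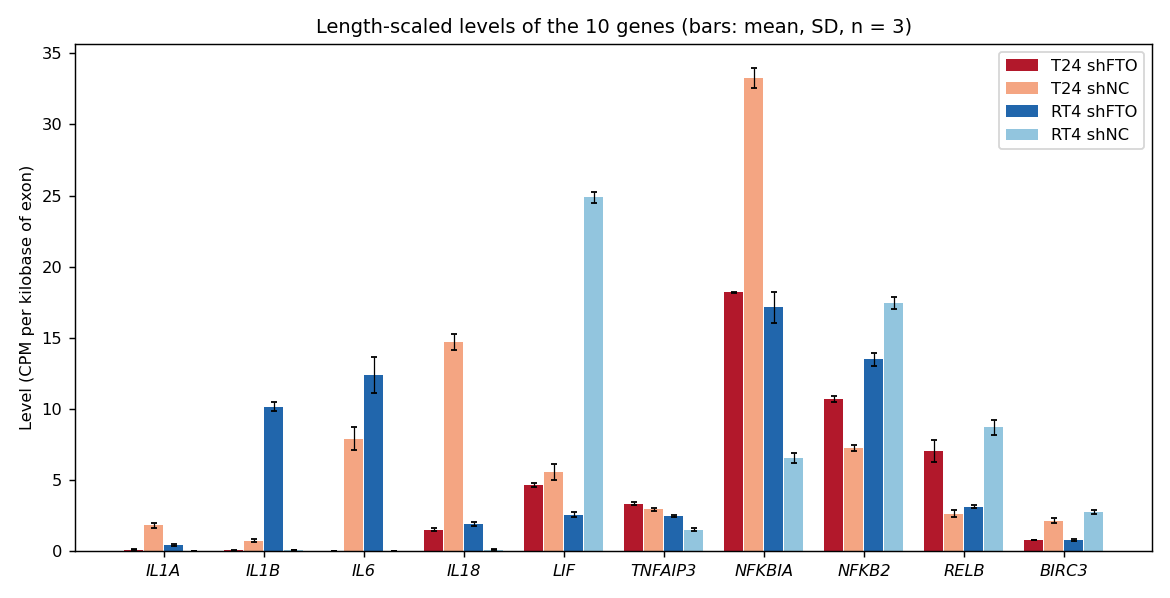
Level of each gene in CPM per kilobase of exon (vertical axis, linear, from 0) in T24 shFTO, T24 shNC, RT4 shFTO and RT4 shNC; bars are means and error bars the SD (n = 3). NFKBIA stands highest in all groups but RT4 shNC, where LIF reaches 24.9, and the IL6 bars of T24 shFTO and RT4 shNC cannot be seen at this scale.

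Other genes of these pathways were counted in 5 lists. The counts of each list are to be read against the shares of all tested genes. These were 37.2% higher and 40.8% lower in T24 shFTO, and 38.6% higher and 40% lower in RT4 shFTO. The NF-κB core list, of 32 kinases, subunits and adaptors that were all tested, had 17 genes higher, 11 lower and 4 not called in T24 shFTO (median log2 change 0.17), and 15 higher, 13 lower and 4 not called in RT4 shFTO (median 0.11). The medians over all tested genes were -0.05 and -0.0038. Scaled by library totals alone, 11 genes of this list were higher in T24 and 9 in RT4. NFKB1, which encodes the p105 precursor of p50, moved as NFKB2 did. It averaged 58.5 ± 2.096 CPM in T24 shFTO and 41.8 ± 1.37 CPM in T24 shNC (log2 change 0.48, edgeR adjusted p = 6.2e-08), and 37.7 ± 1.41 CPM in RT4 shFTO and 51.6 ± 2.45 CPM in RT4 shNC (log2 change -0.45, edgeR adjusted p = 1.31e-07). NFKBIE, which encodes the inhibitor IκBε, went the opposite way to NFKBIA, with log2 changes of 1.78 in T24 (edgeR adjusted p = 2.13e-11) and -0.98 in RT4 (edgeR adjusted p = 3.14e-08). REL, the c-Rel subunit, had 0.32 in T24 (edgeR adjusted p = 0.0055) and -0.87 in RT4 (edgeR adjusted p = 7.1e-07), and its T24 call was lost with library totals (0.14, edgeR adjusted p = 0.172). RELA, the main canonical subunit, had log2 changes of 0.19 in T24 and 0.19 in RT4. With library totals the RELA change was 0.01 in T24 (edgeR adjusted p = 0.756) and turned to -0.073 in RT4 (edgeR adjusted p = 0.0606). With no low-count filter the RT4 call of RELA was lost (0.10, edgeR adjusted p = 0.191). TNIP1, a partner of A20, was lower in T24 shFTO (log2 change -1.69) and higher in RT4 shFTO (1.13). BCL3, a nuclear IκB-like protein that binds p50 and p52 dimers, did the same, with -1.27 and 2.47. MAP3K7, which encodes the kinase TAK1 upstream of IKK, was higher in T24 shFTO (1.21) and lower in RT4 shFTO (-0.41). OTULIN, which removes linear ubiquitin chains, had -0.47 in T24 and 1.32 in RT4. The edgeR adjusted p was 1.27e-07 or less for these 4 genes in both lines.

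Of 26 textbook NF-κB targets other than the 10 genes, 22 were tested. In T24, 8 were higher, 12 lower and 2 not called in shFTO (median log2 change -0.71), and in RT4 13 were higher, 7 lower and 2 not called (median 0.60). TNFAIP2, a TNF-induced gene, averaged 73.1 ± 3.55 CPM in T24 shFTO and 521 ± 1.79 CPM in T24 shNC, and 185 ± 1.76 CPM in RT4 shFTO and 0.9202 ± 0.0632 CPM in RT4 shNC. Its log2 changes were -2.83 (edgeR adjusted p = 3.33e-19) and 7.66 (edgeR adjusted p = 3.86e-22), so it shared the directions of IL6. CSF1, the macrophage growth factor, was higher in both shFTO groups, with log2 changes of 0.82 in T24 (edgeR adjusted p = 1.52e-09) and 8.42 in RT4 (edgeR adjusted p = 3.64e-21). PLAU, the urokinase gene, was lower in both. It averaged 0.221 ± 0.0203 CPM in T24 shFTO and 45.8 ± 1.51 CPM in T24 shNC (log2 change -7.69, edgeR adjusted p = 1.21e-20), and its change in RT4 was -0.59 (edgeR adjusted p = 4.53e-11).

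The list of IL-1 receptors, adaptors and inflammasome genes had 31 entries, of which 29 were in the table and 25 were tested. In T24, 11 were higher, 9 lower and 5 not called in shFTO (median log2 change 0.02), and in RT4 19 were higher, 3 lower and 3 not called (median 2.12). Several tested genes of this list averaged under 1 CPM in both RT4 groups, among them IL1R2, IL1RN, IL33 and AIM2. Their RT4 shFTO means were 0.290, 0.305, 0.723 and 0.723 CPM, against 0, 0, 0 and 2 counts in RT4 shNC. CASP1 encodes the caspase that matures interleukin-1β and interleukin-18. It had 0.0587, 0 and 0 CPM in T24 shFTO libraries, on 3 counts in all, against 13.98, 14.2 and 15.5 CPM in T24 shNC libraries, a ratio of 0.00167 with a counting interval of 0.000343 to 0.00488 (edgeR adjusted p = 3.06e-13). The 3 counts were all in replicate 1, without which CASP1 was at least 351-fold lower in T24 shFTO. In libraries labelled RT4 shFTO it had 17.7, 17.5 and 18.1 CPM, against 0.138, 0.0456 and 0.0221 CPM in those labelled RT4 shNC, and was 334-fold higher with an interval of 195 to 628 (edgeR adjusted p = 6.47e-14). RT4 shNC held 13 CASP1 counts, and without its replicate 1 the ratio was 509. Its groups thus stood in the same order as those of IL6. GSDMD, which encodes the membrane pore through which mature IL-1β leaves the cell, did not share that order. It averaged 38.1 ± 2.48 CPM in T24 shFTO and 0.704 ± 0.251 CPM in T24 shNC, and 27.8 ± 1.098 CPM in RT4 shFTO and 0.316 ± 0.148 CPM in RT4 shNC. In T24 and in RT4 it was thus higher with the shFTO label (edgeR adjusted p = 8.42e-14 and 3.11e-14). The sensor NLRP1 rose as well, with log2 changes of 2.17 in T24 and 1.83 in RT4, and so did the receptor subunit IL1RAP, with 1.57 and 1.24. IL1R1, the signalling receptor for both forms of IL-1, averaged 19.7 ± 0.623 CPM in T24 shFTO and 6.52 ± 0.275 CPM in T24 shNC, and 165 ± 0.655 CPM in RT4 shFTO and 0.586 ± 0.07399 CPM in RT4 shNC. MYD88, the adaptor of IL-1 and Toll-like receptors, averaged 34.1 ± 0.956 CPM in T24 shFTO and 47.1 ± 2.64 CPM in T24 shNC, and 55.2 ± 2.19 CPM in RT4 shFTO and 0.878 ± 0.0775 CPM in RT4 shNC. The edgeR adjusted p was 3.54e-07 or less for each of these 4 genes in each line. IL18BP, a secreted decoy for interleukin-18, had log2 changes of 0.23 in T24 (edgeR adjusted p = 0.0123) and 2.12 in RT4 (edgeR adjusted p = 5.58e-14). The T24 call was lost with upper-quartile scaling (0.12, edgeR adjusted p = 0.144) and with library totals (0.05, edgeR adjusted p = 0.568).

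In the IL-6 family list 23 of 25 genes were tested. There were 8 higher, 14 lower and 1 not called in T24 shFTO (median log2 change -0.53), and 12 higher, 8 lower and 3 not called in RT4 shFTO (median 0.56). LIFR and OSMR, receptor chains for LIF and oncostatin M, were below 1 CPM in T24 shFTO. LIFR averaged 0.483 ± 0.129 CPM in T24 shFTO and 59.1 ± 1.71 CPM in T24 shNC (log2 change -6.98, edgeR adjusted p = 1.34e-18). OSMR averaged 0.393 ± 0.0923 CPM in T24 shFTO and 182 ± 4.47 CPM in T24 shNC (log2 change -8.80, edgeR adjusted p = 4.3e-21). Both were higher in RT4 shFTO, by log2 changes of 1.90 (edgeR adjusted p = 6.89e-14) and 2.26 (edgeR adjusted p = 2.46e-17). IL6R, the ligand-binding IL-6 receptor, and IL6ST, the gp130 chain shared by the family, were higher in both shFTO groups than in their shNC groups. IL6ST averaged 112 ± 2.74 CPM in T24 shFTO and 53.7 ± 1.95 CPM in T24 shNC. Their log2 changes in T24 were 0.86 (edgeR adjusted p = 3.7e-07) and 1.06 (edgeR adjusted p = 1.87e-14). In RT4 they were 1.45 (edgeR adjusted p = 1.01e-08) and 1.63 (edgeR adjusted p = 4.91e-17). CLCF1, another cytokine of the family, had -1.11 in T24 (edgeR adjusted p = 1.16e-12) and 4.30 in RT4 (edgeR adjusted p = 6.56e-20).

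Of 26 TNF-family and Toll-like receptors and their adaptors, 25 were tested. In T24 shFTO 6 were higher, 16 lower and 3 not called (median log2 change -1.91, or -1.80 with genes at 0 counts set to their bound), and in RT4 shFTO 14 were higher, 7 lower and 4 not called (median 1.16). TLR4, the receptor for bacterial lipopolysaccharide, had 0 counts in the T24 shFTO libraries, against 16.6, 17.02 and 16.9 CPM in the T24 shNC libraries, and was at least 690.04-fold lower (edgeR adjusted p = 1.2e-14). It had 92.7, 85.4 and 85.97 CPM in libraries labelled RT4 shFTO, against 0, 0.0365 and 0 CPM in those labelled RT4 shNC, where 4 counts were seen, all in replicate 2 (edgeR adjusted p = 4.16e-17). The ratio was 5367, or 3373 without replicate 3 of RT4 shNC, and at least 3938 without replicate 2. FAS, a death receptor, also had 0 counts in T24 shFTO, against 27.7 ± 0.902 CPM in T24 shNC, and was at least 1137-fold lower (edgeR adjusted p = 1.71e-15), while its RT4 change was -0.81 (edgeR adjusted p = 3.7e-06). LTBR, the lymphotoxin β receptor that feeds the alternative branch, was higher in both shFTO groups, with log2 changes of 0.82 in T24 (edgeR adjusted p = 6.18e-12) and 6.57 in RT4 (edgeR adjusted p = 3.93e-21). TNFRSF21, also called death receptor 6, was higher in both as well, with 3.53 (edgeR adjusted p = 3.41e-18) and 1.88 (edgeR adjusted p = 1.26e-15).

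**Figure D5:**
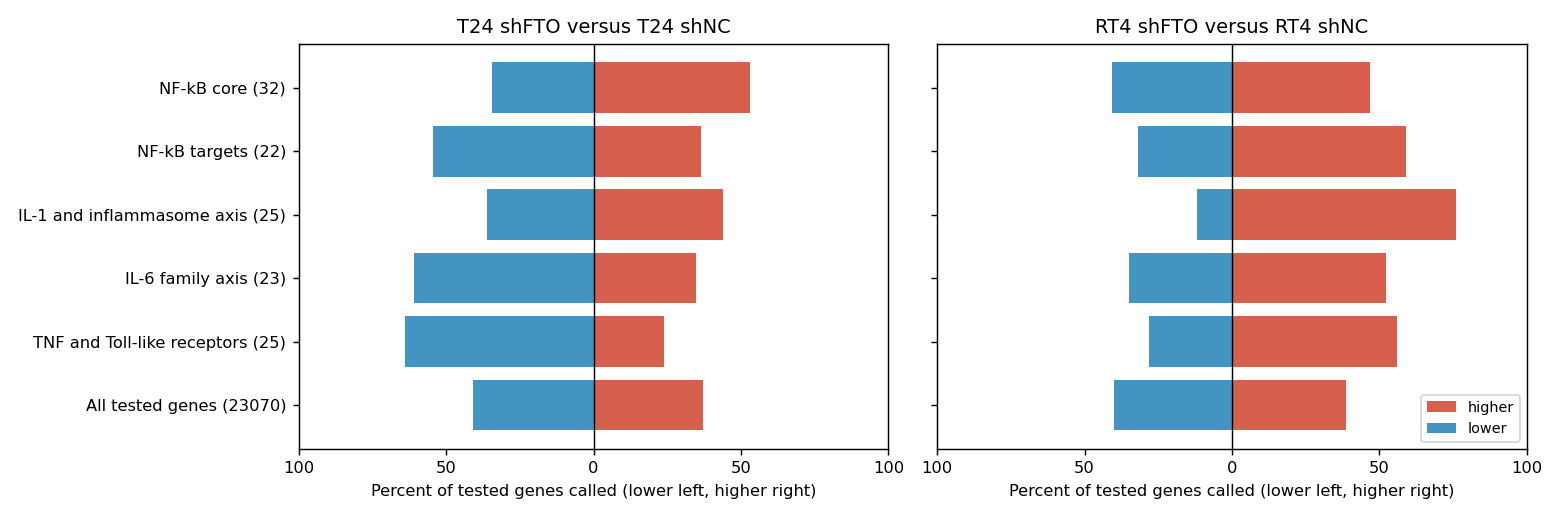
Percent of the tested genes of each list that were called lower (left of 0) or higher (right of 0) in shFTO than in shNC, for T24 (left panel) and RT4 (right panel), with the number tested in brackets and all 23070 tested genes in the last row. In RT4, 19 of 25 IL-1 and inflammasome genes were higher, and in T24, 16 of 25 TNF and Toll-like receptor genes were lower, beside 38.6% and 40.8% of all tested genes in the same directions. Several of the IL-1 and inflammasome genes averaged under 1 CPM in both RT4 groups.

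For each gene, the most similar patterns among 14774 other genes were sought by Pearson's r of log2(CPM + 1) over the 12 libraries. The 12 points form 4 groups, so r largely reflects 4 levels and is given as a description. IL6 was closest to the neighbouring near copies CES1P1 (r = 1.00) and CES1 (r = 0.999), whose counts may share reads. IL1B was closest to GBP4 and PDK4 (r = 0.999 for each), IL1A to PRDX1 (r = 0.997) and SIX2 (r = 0.995), and IL18 to ID3 and POLE4 (r = 0.998 for each). LIF was closest to ZNF585A and GPR161, TNFAIP3 to LIG1 and DOLPP1, NFKBIA to RNASEH2C and MSTO1, NFKB2 to ARFGEF2 and APBB1, RELB to PHB2 and GTF3C3, and BIRC3 to HOXC6 and MUC15. The number of genes with r above 0.99 ran from 6 for RELB to 74 for IL6.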

How the data were processed

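Polyadenylated RNA of 12 libraries was sequenced, per the labels' protocols. The submitters' processing notes name fastp 0.20.0, STAR 2.7.9a, featureCounts 2.0 and the builds mm39, GRCh38 and hg38, without a role. The authors deposited 1 table of raw read counts per gene without coordinates. The annotation release, strand setting and treatment of multiply mapped reads are not given in the sources used.

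Groups follow the titles. Genes passing filterByExpr were fitted in 1 model of 4 groups with 8 residual degrees of freedom (edgeR 4.0.16, R 4.3.3, TMM, robust quasi-likelihood). Standard errors were taken from the F statistic, as |log2 change|/√F. Folds called ratios are of counts summed over a group and divided by its summed scaled totals, and their 95% intervals and the floor of 3 counts cover counting error only. The fit was also run on counts simulated from these libraries, with known folds in a small part of the genes. Most tested genes were called in the real data, so that run cannot check the scaling under changes this wide. DESeq2 1.42.0, limma-voom 3.58.1, other scalings, filters and fits, a 2-fold threshold, thinning, a replicate block and leaving out each library were alternatives. Library totals as the only scaling, and the alternatives for the 3 comparisons that set the order of levels, were added after the data were seen.

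The 10 genes and all lists were chosen with earlier results of these data known. Named besides the 10 genes and FTO were, from each list, genes with the smallest p in a line. For each of the 10 genes, the 2 genes with the highest r among those with a symbol and a mean of at least 1 CPM were named. NFKB1, RELA, REL, NFKBIE, BIRC2, CASP1, GSDMD, IL18BP, IL6R and IL6ST were chosen by role after values were seen. IL1R2, IL1RN, IL33 and AIM2 were named for their low levels in RT4. Of 140 list entries, 138 were in the table and 127 were tested. Positions, promoters and gaps between genes are from RefSeq (GRCh38.p14), and exon lengths and overlaps from GENCODE release 29.

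The batch number of the labels equals the replicate number, so by label the numbers pair libraries. Over 10876 genes, the residuals of same-numbered shFTO and shNC libraries correlated at 0.101, -0.0357 and 0.0192 in T24 and at -0.0977, -0.022 and -0.02 in RT4. Replicates of a group differed beyond sampling noise, with chi-square per degree of freedom of 5.47 to 16.3.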

Additional observations from a re-analysis of the deposited data

Results flagged for a closer look

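Every result of this section was picked out because the change under the shFTO label differed between T24 and RT4 when that difference was tested (the T24 log2 change minus the RT4 log2 change, edgeR adjusted p under 0.05, a call that 75% of all tested genes reached). FTO differed by -1.04. Among the 10 genes the difference was -9.43 for IL1A, -11.32 for IL1B, -7.36 for IL18, -2.26 for NFKBIA and -0.51 for TNFAIP3. It was 3.03 for LIF, 0.93 for NFKB2, 2.90 for RELB and 0.35 for BIRC3. For IL6, with 0 counts in T24 shFTO, no fold is given, and the edgeR adjusted p was 6.08e-14.

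In the NF-κB core list the difference was 0.94 for NFKB1, 1.19 for REL, 2.75 for NFKBIE and 1.62 for MAP3K7, and it was -3.74 for BCL3, -1.79 for OTULIN and -2.82 for TNIP1. Among NF-κB targets it was -7.59 for CSF1, -10.50 for TNFAIP2 and -7.10 for PLAU. Genes around IL-1 and the inflammasome had differences of -6.57 for IL1R1, 0.33 for IL1RAP, -1.89 for IL18BP, -6.41 for MYD88 and 0.34 for NLRP1. For CASP1, with 3 counts in T24 shFTO, the edgeR adjusted p was 1.27e-15. Receptors and ligands of the IL-6 family differed by -0.58 for IL6R, -0.56 for IL6ST, -8.88 for LIFR, -11.06 for OSMR and -5.41 for CLCF1. Among TNF-family and Toll-like receptors the difference was 1.65 for TNFRSF21 and -5.76 for LTBR, and the edgeR adjusted p was 5.44e-14 for FAS and 8.08e-18 for TLR4, which had 0 counts in T24 shFTO.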

How the results depend on the processing

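Under the alternatives, the number of the 10 genes called stayed within 1.5 times its main value, except with a threshold of 2-fold. That threshold left 6 of 10 genes in T24 (shFTO against shNC), 4 of 8 for T24 shFTO against RT4 shFTO and 5 of 10 for T24 shNC against RT4 shFTO. Over all genes it left 11242 of 18006 in T24, 11073 of 18124 in RT4, 11792 of 18475 for T24 shNC against RT4 shNC, 11471 of 17876 for T24 shFTO against RT4 shFTO, 10601 of 17535 for T24 shNC against RT4 shFTO and 11999 of 18490 for T24 shFTO against RT4 shNC. Leaving out 1 library gave 9 to 10 genes in T24, 10 in RT4 and 9 to 10 for the difference between the lines. With the batch as a replicate block 10 of 10 genes were called in T24, RT4 and their difference, and 7 instead of 8 for T24 shFTO against RT4 shFTO, where IL18 was lost. Library totals as the only scaling shifted the median log2 change over all genes (-0.18 for T24, -0.266 for RT4), as did upper-quartile scaling (-0.106 and -0.107). With library totals 3 log2 changes reversed, those of BIRC2 in T24 (-0.053) and RT4 (-0.10, edgeR adjusted p = 0.0484) and of RELA in RT4 (-0.073), and the higher genes of the NF-κB core list numbered 11 instead of 17 in T24 and 9 instead of 15 in RT4. Of the other recomputed log2 changes for T24, RT4, their difference and T24 shNC against RT4 shNC, 2694 kept direction and call and 17 lost the call. For the 10 genes in the remaining pairs of groups, 633 of 657 recomputed calls stayed as they were, 18 were lost (12 for IL18 and 6 for RELB) and 6 were gained (4 for NFKBIA, 1 for IL1B and 1 for IL6). The cause was not tested where the text gives none. Depth limits IL1A and IL6 in RT4 shNC, with 6 and 5 counts, and IL1A and IL1B in T24 shFTO, with 21 and 16.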
